A study of Mus musculus with 4 samples.

Results

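The m6A reader genes examined here were 10 genes whose proteins bind N6-methyladenosine (m6A) or RNA whose folding m6A alters: Ythdf1, Ythdf2, Ythdf3, Ythdc1, Ythdc2, Hnrnpa2b1, Hnrnpc, Rbmx, Elavl1 and Fmr1. Their members were all peaks listed under one of these symbols in 2 deposited lists of m6A peaks from mouse liver, 20 of the 14057 peaks from Alkbh5flox/flox livers (FF) and 17 of the 14693 peaks from Alkbh5-HKO livers (HKO, which the labels do not spell out). The 10 genes were among 9650 genes with a peak in either list. ALKBH5 is an m6A demethylase. All mice were 9 weeks old and on normal chow. The labels name no Cre driver and no sex, and HKO livers are described by genotype only. Liver RNA of 3 mice was pooled for each genotype, and each list was called from 1 immunoprecipitated (IP) library over 1 input library, so there was no replicate and no test between genotypes was possible. The series held 4 libraries in all.

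m6A is written on nascent RNA by a methyltransferase complex, mostly in long internal exons and around stop codons, and acts through proteins that recognise it. YTH-domain proteins hold the methylated adenosine in a pocket. YTHDF1, YTHDF2 and YTHDF3 act in the cytoplasm, on translation and decay, while YTHDC1 acts in the nucleus on splicing and export. HNRNPC and RBMX bind stretches that m6A makes single-stranded, and HNRNPA2B1, ELAVL1 and FMRP, the product of Fmr1, have been linked to m6A in various ways. Transcripts of the readers can themselves carry m6A, and that is what the peaks show: a peak is a stretch of the reader's own RNA with more IP reads than its input accounts for, and says nothing of the reader protein. The fold enrichment (IP over input) and the q-value of each peak are the authors' own values. FF and HKO folds stem from different IP reactions and are therefore set side by side with no direction.

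Alkbh5, the targeted gene, had 3 FF peaks and 0 HKO peaks. Of 10 hepatocyte genes used to check the tissue label, 4 had peaks in both lists, Alb had a peak in the FF list alone, Ttr, Cyp2e1 and Cps1 in the HKO list alone, Asgr1 had none, and the symbol Tf was not in the gene table. The lists hold no read totals, so depth is unknown, and a missing peak does not show missing m6A, whether the transcript is rare or, as for these hepatocyte genes, abundant. It is also not known whether the lists as used here hold every peak that was called.

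All 10 reader genes had peaks in both lists, against 75.6% of the 9650 genes with a peak in either. That count was known when the genes were chosen, so it is a description of the set. In the FF list, 17 of 20 reader peaks (85%, 95% Wilson interval 64.0 to 94.8) shared at least 1 exonic base with an HKO peak on the same strand, against 74.8% of all FF peaks. In the HKO list, 15 of 17 (88.2%, 65.7 to 96.7) overlapped an FF peak, against 71.5% of all HKO peaks. Both backgrounds lay inside the reader intervals, which cover counting error only and treat peaks of the same gene as independent. Grouping overlapping peaks gave 20 loci, and 15 of these were in both lists. Another 3 were in the FF list alone (on Ythdc1, Elavl1 and Hnrnpc) and 2 in the HKO list alone (on Hnrnpc and Fmr1). Over all 17797 loci, 19.9% were in the FF list alone and 23.5% in the HKO list alone. The difference of 20 and 17 peaks was partly one of merging, since at 1 locus of Ythdf3 and 1 of Ythdc1 a pair of FF peaks lay under 1 HKO peak. Such merged loci made up 1.90% of all 17797 loci. The reverse, 1 FF peak over several HKO peaks, made up 1.87% of all loci and was seen at 0 reader loci.

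**Figure D1:**
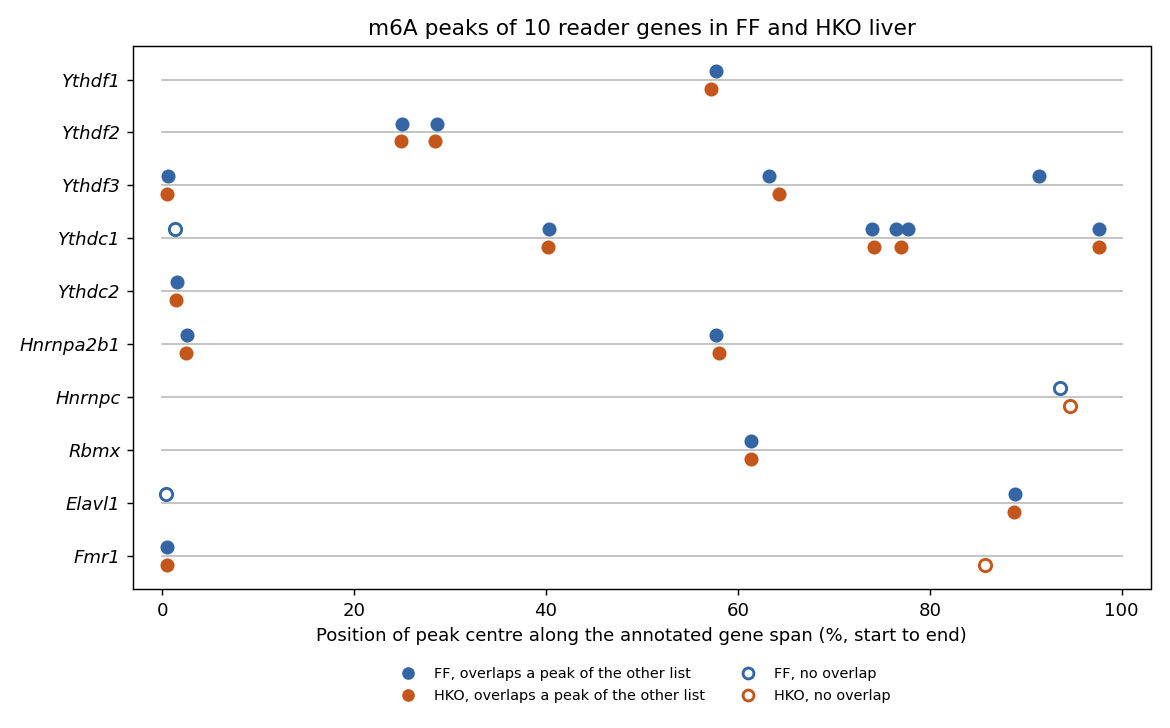
Centre of each reader peak as a percentage of the annotated gene span, from start (left) to end (right), for the 10 genes, with FF peaks above each line and HKO peaks below it. Filled points overlap a peak of the other list and open points do not; 5 of the 37 points are open, and Hnrnpc has both of its points open.

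Of the 5 reader loci at annotated gene starts, 3 were in both lists and 2 in the FF list alone. Of all 2354 start loci, 39.5% were in both lists and 52.1% in the FF list alone. In the FF list, 5 reader peaks were centred within 500 bp of the start of the gene, on Ythdf3, Ythdc1, Hnrnpa2b1, Elavl1 and Fmr1 (5 of 20, against 15% of all FF peaks). The HKO list had 3 such peaks, on Ythdf3, Hnrnpa2b1 and Fmr1 (3 of 17, against 7.38% of all HKO peaks). These counts depended on the settings. There was 1 FF and 1 HKO start peak in a window of 200 bp. At a q of 1e-05 or less there were 3 FF and 1 HKO start peaks. Shares over all peaks are not given for these settings. Of the 5 FF start peaks 3 overlapped an HKO peak, as did 41.8% of all FF start peaks, whereas 14 of 15 reader FF peaks elsewhere did, as did 80.6% of all FF peaks elsewhere. Of the HKO reader peaks, 3 of 3 at starts and 12 of 14 elsewhere overlapped an FF peak, against 81.8% and 70.7% of all HKO peaks at these places. For Ythdc1, Hnrnpa2b1 and Elavl1 the peak ran into the promoter window of a RefSeq transcript, and these sequences are shown because they place the peak against the start site. Windows were found for 8 of the 10 genes. Each sequence below is the transcript strand of GRCm38.p6, 5′ to 3′, from 250 bases before the transcript start to 30 bases after it, and capitals mark the bases that lie inside an FF peak.
Ythdc1, chr5:86804016-86804295, plus strand: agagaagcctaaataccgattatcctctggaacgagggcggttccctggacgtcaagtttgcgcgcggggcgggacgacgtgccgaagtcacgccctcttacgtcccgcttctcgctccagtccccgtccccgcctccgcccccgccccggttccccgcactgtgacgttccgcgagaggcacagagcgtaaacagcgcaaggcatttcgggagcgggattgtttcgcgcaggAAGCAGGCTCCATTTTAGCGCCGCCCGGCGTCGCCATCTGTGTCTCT
Hnrnpa2b1, chr6:51469865-51470144, minus strand: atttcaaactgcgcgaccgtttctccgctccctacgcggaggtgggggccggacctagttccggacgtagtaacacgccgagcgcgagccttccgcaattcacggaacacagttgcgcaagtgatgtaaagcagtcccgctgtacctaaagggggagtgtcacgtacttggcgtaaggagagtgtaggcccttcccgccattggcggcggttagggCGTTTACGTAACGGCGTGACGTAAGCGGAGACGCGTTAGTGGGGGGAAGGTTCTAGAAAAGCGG
Elavl1, chr8:4325071-4325350, minus strand: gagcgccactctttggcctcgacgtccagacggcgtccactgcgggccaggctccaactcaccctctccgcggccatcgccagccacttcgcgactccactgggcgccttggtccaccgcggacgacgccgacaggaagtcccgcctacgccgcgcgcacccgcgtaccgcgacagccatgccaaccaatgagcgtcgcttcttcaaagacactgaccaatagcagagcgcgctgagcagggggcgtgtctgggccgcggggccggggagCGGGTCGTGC
These transcript starts differ from the gene start used for the 500 bp window, which is the outermost base of the gene span. For Ythdc1 the transcript start lies 286 bp inside the gene span, so the FF peak began 269 bp after the gene start. Against the transcript start it began 17 bases before and held 47 of the printed bases, and no HKO peak reached the window. The Hnrnpa2b1 peak began 34 bases before the printed start and held 64 printed bases. The HKO peak of Hnrnpa2b1 covered 25 bases of this 300-base window, all after that start, against 84 in FF. RefSeq gives Hnrnpa2b1 a second start, whose window held 133 FF and 74 HKO peak bases, and against that start the FF peak began 83 bases before and the HKO peak 24 bases before. The Elavl1 peak began 21 bases after the start and held the last 10 printed bases, again with no HKO peak. The windows were 64% G or C for Ythdc1, 60% for Hnrnpa2b1 and 70% for Elavl1, against a median of 52.7% over all 32851 promoter windows. Reader windows with no peak base were as rich on Ythdf1 (70%), Ythdf2 (66.3%) and Fmr1 (65.7% and 67%). Those of Hnrnpc (54.3%) and Rbmx (47%) were less rich. The sequence GGAC, the core of a common m6A motif, occurred on the transcript strand of the full windows 2 times for Ythdc1, 2 times for Hnrnpa2b1 and 1 time for Elavl1, and 3, 1 and 4 times on the other strand. Of all promoter windows, 65.6% held it on the transcript strand and 87.7% on either strand, so these matches only describe the windows.

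Few reader peaks had their centre in the window at the annotated gene end. In each list 1 reader peak, on Ythdc1, was centred within 1000 bp of the annotated end. This was 5% of the FF reader peaks (0.888 to 23.6) against 26.6% of all FF peaks, and 5.88% (1.05 to 27.0) of the HKO reader peaks against 31% of all HKO peaks. These intervals treat peaks of a gene as independent, and the count in both lists rests on the same locus of Ythdc1. With an end window of 500 bp both counts were 0. Peaks outside the 1000 bp window could still lie late in the gene. Those of Hnrnpc were centred 1972 bp from the end in FF and 1639 bp in HKO. Ythdf3 had an FF peak at 91.4% of the gene span, and Fmr1 an HKO peak at 85.7%. Elavl1 had peaks at 88.9% in FF and 88.8% in HKO. The FF peak of Ythdf2 centred at 28.7% had its last block from 132186685 to 132186947, on a minus-strand gene that ends at 132184916. The larger part, 14 of 20 FF and 13 of 17 HKO reader peaks, lay in neither end window, against 58.8% and 61.9% of all peaks.

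The YTHDF genes encode close paralogues, and all 3 carried a very long exon block. Ythdf1, on the minus strand of chromosome 2, had 1 peak in each list, from 180910741 to 180911997 in FF and from 180910741 to 180912176 in HKO. The peak was an unbroken block, 1257 bp long in FF and 1436 bp long in HKO, longer than the longest block of 99.5% and 99.7% of all peaks in the respective lists. The FF fold was 6.84 (log10 q -33.8) and the HKO fold 15.3 (log10 q -37.3). The centre lay 9567 bp from the gene start in FF, 57.8% of the way along the gene. The FF peak lay entirely within the HKO peak.

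Ythdf2, whose protein brings methylated RNA to the deadenylase complex, had 2 peaks in each list on the minus strand of chromosome 4. The larger peak joined a block from 132204132 to 132204948 in FF, of 817 bp, to a block of 263 bp beyond a gap of 17184 bp. In HKO the blocks measured 907 bp and 203 bp, with the same gap. This was the reader peak of smallest q in both lists, at log10 q -89.1 (fold 15.9) in FF and -97.5 (fold 40.2) in HKO. The smaller peak, upstream in the transcript, had its 3′ limit at the same base, 132205338, in both lists and measured 180 bp in FF (fold 3.43, log10 q -5.17) and 240 bp in HKO (fold 7.85, log10 q -5.24).

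Ythdf3, on the plus strand of chromosome 3, had the longest reader peak of the HKO list, while that of the FF list was on Ythdf1. In FF the long block ran from 16204086 to 16205102 (1017 bp, fold 8.78, log10 q -43.4), and after 297 bp a further peak joined a block of 25 bp to 335 bp beyond a gap of 8530 bp (fold 7.20, log10 q -32.8). In HKO a single peak covered both, with blocks of 1488 bp and 484 bp and the same gap (fold 37.8, log10 q -52.0). The FF bases of this locus, 1377 bp in all, were all inside the HKO peak of 1972 bp. At the start of the gene the order of lengths was the opposite. There the FF peak measured 329 bp, 16 bp of it beyond a gap of 401 bp, and its fold was 12.3 (log10 q -18.6). The HKO peak measured 91 bp (fold 1.98, log10 q -1.99) and was the weakest reader peak of its list by both fold and q.

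The long blocks of the 3 genes differed between the lists in the same way upstream. In each, the HKO block began further upstream in the transcript, by 179 bp on Ythdf1, 90 bp on Ythdf2 and 149 bp on Ythdf3. Downstream, the block limit was the same base in both lists on Ythdf1 and Ythdf2. On Ythdf2 that base was where the peak met its gap. Beyond the gap the FF peak reached further downstream, with a block of 263 bp against 203 bp in HKO. On Ythdf3 the HKO block reached 322 bp further, to the base at which the next FF peak met its gap. A block of 800 bp or more occurred in 4.1% of all FF peaks and 4.64% of all HKO peaks. Counted by gene, 6.75% of genes in the FF list and 7.75% of genes in the HKO list had such a block. Among the readers such a block occurred on all 3 YTHDF genes in both lists and on none of the other 7. The cutoff matters here, since Ythdc1 had an HKO block of 743 bp and the FF block of Ythdf2 was 817 bp. A block of 1000 bp or more occurred in 2 reader peaks of each list, on Ythdf1 and Ythdf3 but not Ythdf2. It occurred in 1.73% of all FF peaks and 1.95% of all HKO peaks. These lengths move with depth and with how adjoining windows are merged, and the part of either was not tested.

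**Figure D2:**
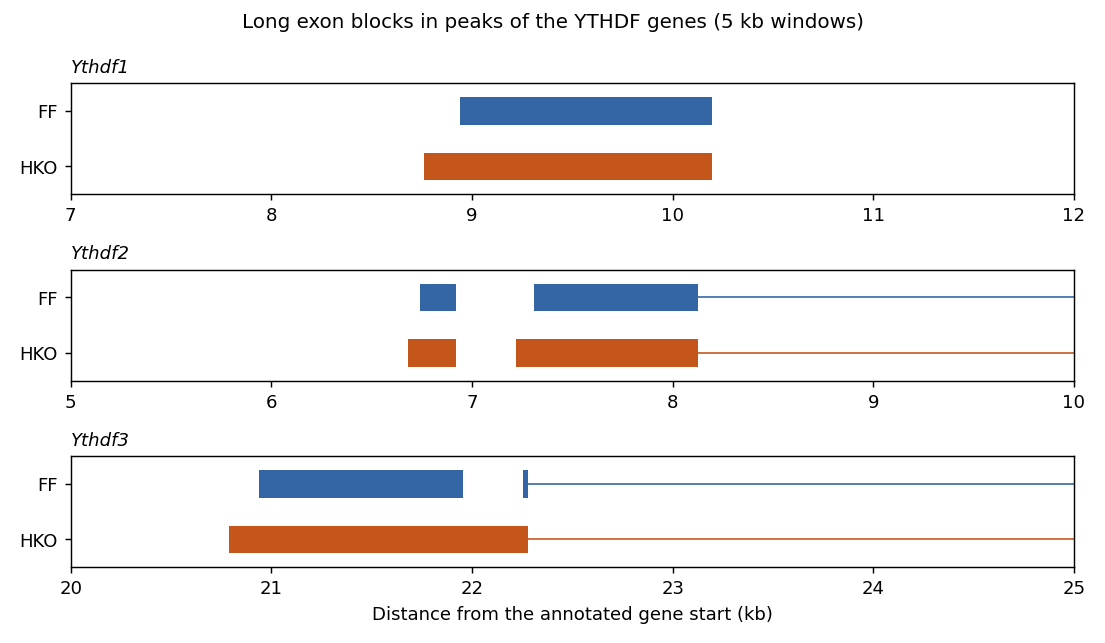
Exon blocks of the peaks around the long block of Ythdf1, Ythdf2 and Ythdf3, by distance from the annotated gene start (kb, direction of transcription to the right), with FF in blue and HKO in orange. Thin lines are gaps between blocks of a peak, which end beyond the window; the long blocks measure 1257, 817 and 1017 bp in FF and 1436, 907 and 1488 bp in HKO.

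Ythdc1, the nuclear reader, had the most peaks of the set, 6 in FF and 4 in HKO, on the plus strand of chromosome 5. Only 0.645% of FF genes had 6 or more peaks, and 6.27% of HKO genes had 4 or more. At its start, the FF peak from 86804249 to 86809321 had blocks of 343 bp and 17 bp beyond a gap of 4713 bp. Its fold of 52.5 was above that of 98.3% of FF peaks, at a log10 q of -17.5, and it overlapped no HKO peak. The peak at 40.3% of the gene measured 270 bp in each list, of which 241 bp were common, and its fold was 7.05 (log10 q -22.1) in FF and 3.59 (log10 q -12.3) in HKO. Further along, a peak starting at 86828050 in both lists measured 210 bp in FF (fold 4.05, log10 q -3) and 359 bp in HKO (fold 28.0, log10 q -7.38).

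The next locus of Ythdc1 held 2 FF peaks of 270 bp and 330 bp, 118 bp apart, with folds of 16.9 and 17.7. In HKO they were covered by 1 peak of 808 bp with a fold of 45.0, the highest of the HKO reader peaks. Both lists ended this locus at 86830618, in a block of 65 bp beyond a gap of 1074 bp. The last peak was centred 762 bp from the gene end in both lists and measured 329 bp in FF (fold 2.59, log10 q -10.3) and 389 bp in HKO (fold 5.39, log10 q -19.2). Of the 5 Ythdc1 loci, 4 were thus in both lists, and the start locus was in the FF list alone.

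**Figure D3:**
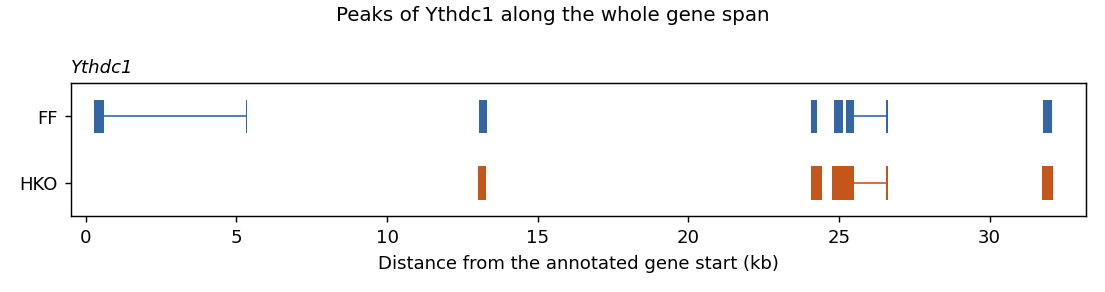
Exon blocks of the Ythdc1 peaks along the whole gene span, by distance from the annotated gene start (kb), with FF in blue and HKO in orange and thin lines for gaps within a peak. FF shows 6 peaks and HKO 4; the FF peak at the start has no counterpart, and 2 neighbouring FF peaks lie under 1 HKO peak.

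Ythdc2, which carries an RNA helicase domain beside its YTH domain and is best known from germ cells, had 1 peak per list on the plus strand of chromosome 18. Both began at 44828477, near the start of the gene. The FF peak measured 390 bp (fold 21.1, log10 q -4.72), and its centre lay 941 bp from the start, outside the start window. The HKO peak measured 270 bp (fold 13.6, log10 q -2.59), and all of it lay inside the FF peak.

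Among the nuclear ribonucleoproteins, Hnrnpa2b1 on the minus strand of chromosome 6 had the most fragmented peaks. Its start peak measured 270 bp in FF (fold 3.29, log10 q -21.5) and 121 bp in HKO (fold 2.01, log10 q -8.17). The peak further along, from 51464115 to 51466191 in FF, joined 4 blocks of 50, 63, 120 and 97 bp (fold 3.37, log10 q -56.5). In HKO it ran from 51464115 to 51465231, with the same 3′ limit, and joined 3 blocks of 53, 120 and 97 bp (fold 2.77, log10 q -35.0). These folds stood at percentiles 15.0 and 15.7 of all FF folds and 2.62 and 8.24 of all HKO folds. Peaks of 2 or more blocks made up 8 of 20 reader peaks in FF and 4 of 17 in HKO, against 17.4% and 13.9% of all peaks.

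Hnrnpc was the only reader with no base common to its peaks, as for 4.09% of the 7291 genes with peaks in both lists. On the minus strand of chromosome 14, the FF peak ran from 52075260 to 52075614 (179 bp in 2 blocks, fold 2.48, log10 q -6.99) and the HKO peak from 52074897 to 52075136 (240 bp, fold 2.42, log10 q -4.78). They lay 123 bp apart, at 93.6% and 94.7% of the gene span. Rbmx, on the minus strand of the X chromosome, had 1 peak per list with the same centre, 5952 bp from the start. It measured 328 bp in FF (fold 12.8, log10 q -29.6) and 269 bp in HKO (fold 39.6, log10 q -31.2), and the HKO peak lay inside the FF peak. Hnrnpa2b1, Hnrnpc and Rbmx have processed copies elsewhere in the genome, Rbmxl1 among them, that can share reads with the parent gene, and their peaks are uncertain to that extent. In the gene table used, no other gene's span overlapped any reader peak.

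Elavl1 encodes HuR, a protein that binds AU-rich sequences and stabilises RNA. On the minus strand of chromosome 8, both lists had a peak with its 3′ limit at 4289205, of 151 bp in FF (fold 3.19, log10 q -4.13) and 210 bp in HKO (fold 8.27, log10 q -11.6). The start peak, from 4324901 to 4325080, was in the FF list alone (180 bp, fold 8.62), and its log10 q of -2.52 was the weakest of the FF reader peaks.

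Fmr1 encodes FMRP, a repressor of translation. On the plus strand of the X chromosome it had a start peak in both lists, ending at 68678835 in each, of 180 bp in FF (fold 11, log10 q -3.53) and 150 bp in HKO (fold 6.22, log10 q -3.17). A further peak, from 68712261 to 68712411, was in the HKO list alone (151 bp, fold 19.5, log10 q -4.20). Together with Hnrnpc, Elavl1 and Fmr1 had the least common sequence of the set, with 38.7% and 45.3% of the bases covered in either list covered in both.

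Over the set, reader peaks covered 8000 bp of exon in FF and 8356 bp in HKO, of which 6536 bp were common. The common share of a reader's covered bases ran from 0% on Hnrnpc to 87.5% on Ythdf1 and 85.1% on Ythdf2, with a median of 64.5%. Over all 7291 genes with peaks in both lists the median was 62.5%. Covered length was greater in HKO on 6 of the 10 readers, as it was on 53.3% of those genes.

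**Figure D4:**
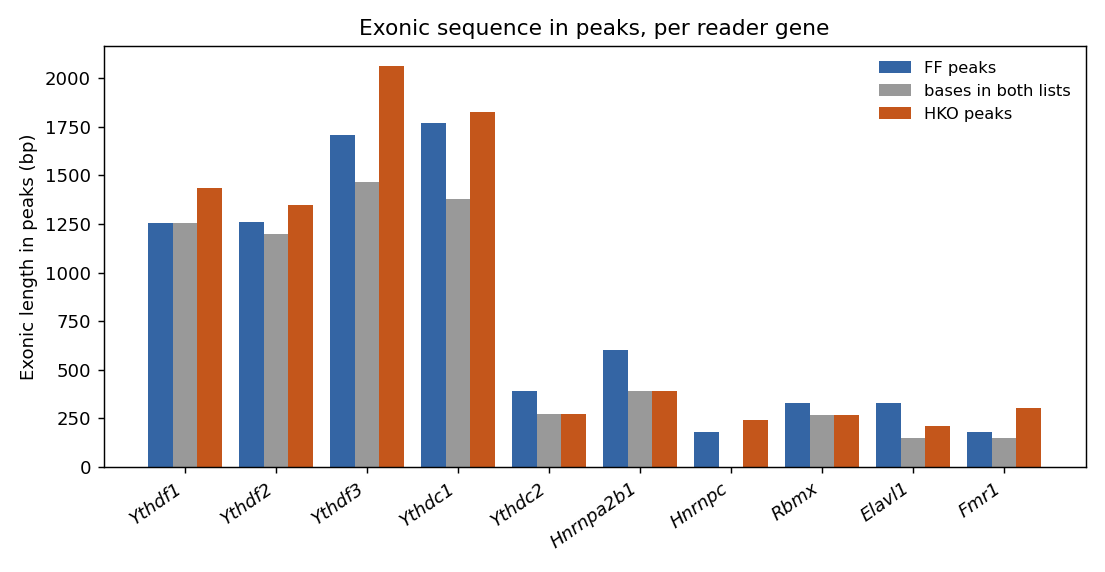
Exonic length in peaks (bp) for each reader gene in the FF list (blue) and the HKO list (orange), with the bases found in both lists between them (grey). Ythdf1, Ythdf2, Ythdf3 and Ythdc1 each have 1257 bp or more in both lists, and the other 6 have 600 bp or less; Hnrnpc has no grey bar.

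Peak length differed between the lists by place. At the 3 reader start loci held by both lists, on Ythdf3, Hnrnpa2b1 and Fmr1, the HKO length was the shorter, as it was at 64.7% of all 930 shared start loci (greater at 19%). At the 12 shared reader loci elsewhere the HKO length was greater at 8, equal at 1 and shorter at 3, namely those of Ythdc2, Rbmx and Hnrnpa2b1. Over all 9146 shared loci elsewhere it was greater at 54.2% and shorter at 34.4%. At either place most reader loci had the direction that most loci of the lists had.

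**Figure D5:**
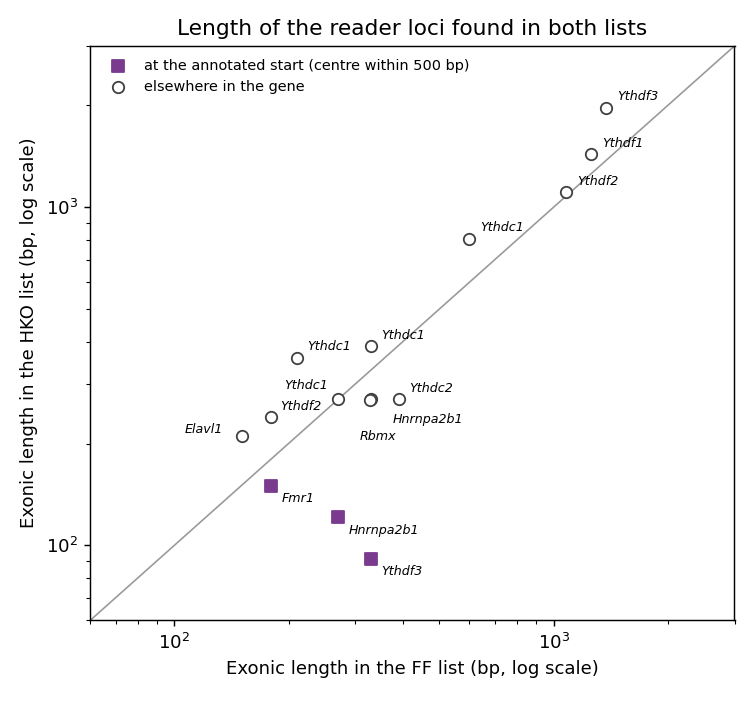
Exonic length (bp, log scales) of the 15 reader loci found in both lists, FF on the horizontal axis and HKO on the vertical axis, with peaks of a locus summed; squares are start loci, circles are loci elsewhere, and the line marks equal length. The 3 squares lie below the line, and 8 of the 12 circles lie above it.

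Other proposed readers and partners of the YTH proteins gave a wider view. Of 30 such genes, 17 had a peak, and 14 of these (82.4%) had peaks in both lists, against 75.6% of all genes with a peak in either, a share near the background. Of the 15 other proposed readers 7 had peaks, each in both lists, while Igf2bp1, Igf2bp2, Igf2bp3, Prrc2a, Fxr1, Lrpprc, Hnrnpa1 and Hnrnpu had none in either list as used here. Since the completeness of the lists is not known, such absences are no measurement of these transcripts. Of 5 partners of YTHDC1 in splicing and export, Srsf10 had peaks in both lists, Srsf7, a splicing factor, had 1 FF peak centred 90 bp from the gene start (fold 2.84, log10 q -1.66), and Nxf1, the main export receptor for mRNA, had 1 HKO peak (fold 3.05, log10 q -5.43). Srsf3 and Cpsf6 had none. Of 7 partners of YTHDF2 in RNA decay, 5 had peaks in both lists, and Cnot1 and Cnot3, subunits of the deadenylase complex, had none in the lists as used here. A gene with peaks in both lists need not have them at the same place. On Cnot6l they were centred 2139 bp from the start in FF and 86910 bp in HKO. Xrn1, the 5′ to 3′ exonuclease that binds YTHDC2, had 1 FF peak (fold 16.4, log10 q -3.73) and no HKO peak. Of the 2 translation partners Eif3b had peaks in both lists and Eif4a3 none.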

How the data were processed

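MeRIP-seq libraries (IP and input) were made from 1 pool of liver RNA per genotype. Per the series design text, the authors called peaks for each genotype with exomePeak 2.16.0, IP over input, at a q-value threshold of 0.05. Genome build GRCm38.p6 and the tools BWA 0.7.12, fastp 0.19.11 and HOMER 4.9.1 are given in the submitters' processing notes. The design text and the sample protocols name different antibodies and library kits, and this was not settled. The deposited score column was read as the p-value of each peak. The deposited log10 q-value was treated as a score with no lower bound. The deposited fold enrichment is a ratio, IP over input, as the authors computed it.

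With Python 3.11.15 (numpy 2.4.6, pandas 2.3.3, matplotlib 3.10.9, scipy 1.17.1), peaks were overlapped by exon blocks (at least 1 bp, same strand), and the middle exonic base of a peak was placed against the RefSeq gene span, introns included. Windows were 500 bp at starts and 1000 bp at ends. Positions count from base 1. Promoter sequences are from RefSeq (GRCm38.p6). Overlap and placement were tested on simulated data. All peaks of all 10 members were named, and from the list of partners the genes with a peak in 1 list or in none. Members and lists were chosen with earlier results of these data known, and the comparison of lengths by place and of the YTHDF blocks after their values were seen. Alternatives varied the q, the fold, the overlap rule and the windows. Motif shares within peaks were not analysed here.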

Additional observations from a re-analysis of the deposited data

How the results depend on the processing

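Across 28 pairs of a count and an alternative setting, 21 stayed within 1.5 times the value given and 7 did not. With both lists limited to a q of 1e-05, reader genes with peaks in both fell from 10 to 6 (Hnrnpa2b1, Rbmx, Ythdc1, Ythdf1, Ythdf2 and Ythdf3), and reader start peaks were 3 in FF and 1 in HKO. With a start window of 200 bp there was 1 start peak in each list, and with an end window of 500 bp there were 0 end peaks in each, so the counts at gene ends depend on the window. Requiring a fold of 2 or more moved no count by over 1.5 times. Overlap over at least 50% of both peaks left 12 FF and 12 HKO reader peaks shared. Shares over all peaks or genes are not given for these settings. The counts here therefore cannot be set against the shares given at the main settings. The motif alternatives were not run. No paired analysis was possible because each list came from 1 pool. Depth limits these counts by an amount that the lists do not give.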

Other observations

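On some partner genes the peak of smallest q lay at different places in the lists. These genes were picked after their values were seen. Rida, whose product is a partner of YTHDF2 in RNA decay, had 2 peaks in each list. Its peak of smallest q lay 88 bp (centre) from the gene start in FF (fold 2.30, log10 q -28.1) and 175 bp from the gene end in HKO (fold 3.79, log10 q -228). Where the other Rida peak of each list lay is not given here, so these places do not show that a peak moved. Cnot6l, a deadenylase, had 1 peak in each list, centred 2139 bp from the start in FF (fold 15.7, log10 q -3.17) and 6955 bp from the end in HKO (fold 11.9, log10 q -2.40).

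Fxr2, a paralogue of Fmr1, had 3 peaks in each list. As on Fmr1, a start peak was present in both, and here it was the peak of smallest q, centred 210 bp from the start in FF (fold 121, log10 q -50.2) and 225 bp in HKO (fold 9.43, log10 q -28.0). Eif3b, a subunit of a translation initiation factor, likewise had its peak of smallest q at the start in both lists, 284 bp away in FF (fold 14.0, log10 q -80.3) and 209 bp in HKO (fold 4.85, log10 q -34.2). Differences between the lists at these peaks have no replicate check.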
